A study of Mus musculus with 1152 samples.

Results

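Microglia, the resident macrophages of the brain, are described here in the state in which they carried little or no sign of the plaque-associated programme. The cells compared were hippocampal microglia of 5xFAD and wild-type (WT) mice with reads in 0 or 1 of 8 genes of that programme (Cst7, Clec7a, Itgax, Spp1, Lpl, Axl, Igf1 and Gpnmb), called panel-negative below. The members were thus chosen by the read counts of these 8 genes in the same cells. They numbered 203 of the 904 cells of the series that passed the quality filters, 172 from 4 WT mice and 31 from 3 5xFAD mice. The 8 panel genes chose these cells, so they are described without a test, and any gene tied to them can differ between the genotypes because of that choice. The 5xFAD line carries human transgenes with mutations of familial Alzheimer's disease, driven in neurons by the Thy1 promoter, and it forms amyloid plaques. Both genotypes have C57BL/6J as their labelled strain. The sources used here give neither age nor sex. Single cells had been sorted by flow cytometry after staining for CD11b, CD45, Ly6C, Ly6G and CD206, and read out by Smart-seq2, which covers whole transcripts and has no molecular identifiers. All WT hippocampal cells lay on 1 plate and all 5xFAD hippocampal cells on another, and the effects of plate and genotype cannot be told apart in any value below.

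In the undisturbed brain, microglia keep a homeostatic programme that includes the purine receptor P2RY12, the fractalkine receptor CX3CR1 and the surface protein TMEM119. Near amyloid plaques they lower these genes and raise a disease-associated programme of lipid carriers, lysosomal proteases and phagocytic receptors, of which APOE, TREM2 and the 8 panel genes are well-known parts. Major histocompatibility complex (MHC) class I molecules, which show peptides from inside the cell to T cells, and interferon-induced genes form further programmes that microglia can switch on.

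Panel-negative cells were nearly all of the WT hippocampal microglia and the minority of the 5xFAD ones. Of the kept WT cells 172 of 176 (97.7%) were panel-negative, 43 in each of the 4 mice. Of the kept 5xFAD cells 31 of 132 (23.5%) were panel-negative, as 11 of 43, 11 of 48 and 9 of 41 cells in mice 1, 2 and 3. Among the kept WT cells 145 had no panel gene with a read and 27 had 1, while among the kept 5xFAD cells 15 had none, 16 had 1, 16 had 2, 19 had 3 and 66 had 4 or more. The 5xFAD cells were sequenced more deeply, with a median of 312966 to 428875 reads in genes per panel-negative cell by mouse against 207755 to 292258 in WT. After every cell was thinned to 53000 reads, 172 WT and 41 5xFAD cells (31.1% of the kept) were panel-negative. Wells without a cell held 0 panel-gene reads of 18533 on the WT plate and 2 of 24000 on the 5xFAD plate.

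**Figure D1:**
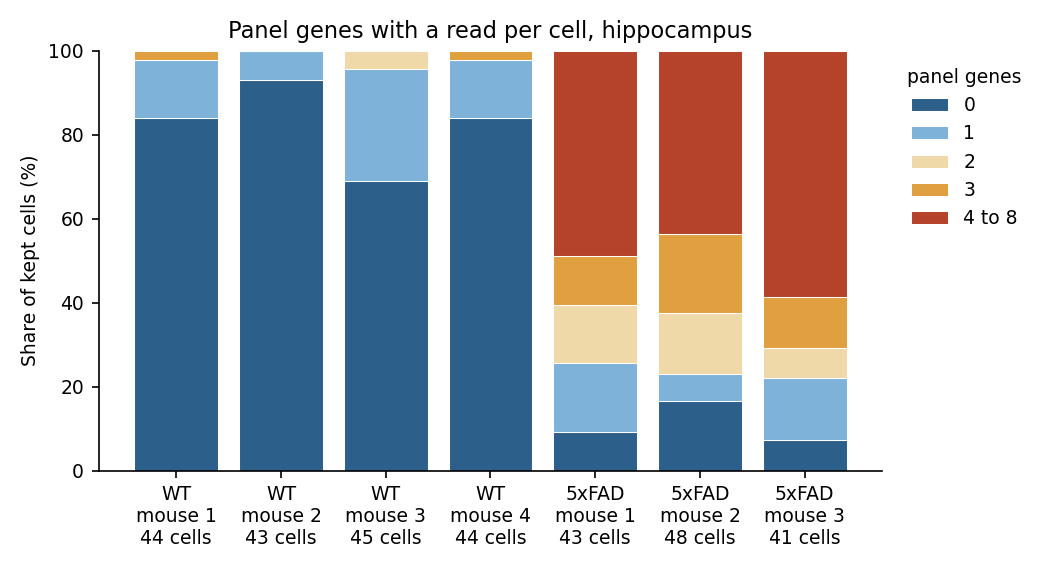
Share of kept hippocampal microglia (y axis, % of cells) with reads in 0, 1, 2, 3 or 4 to 8 of the panel genes, with a stacked bar for each of the 4 WT and 3 5xFAD mice. Cells with 0 or 1 panel gene filled nearly the whole bar of each WT mouse and 22 to 25.6% of the bar of each 5xFAD mouse.

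Each panel gene had a read in few of these cells, though not always with few reads. Cst7, a cysteine protease inhibitor, had a read in 5 of 172 WT and 6 of 31 5xFAD panel-negative cells. Axl, a receptor for dying cells, had a read in 3 and 4. Clec7a, a lectin receptor, had a read in 8 and 3, and Lpl, lipoprotein lipase, in 8 and 2. The 3 5xFAD cells held 2033 Clec7a reads and the 8 WT cells 943. Itgax was read in 2 WT cells and no 5xFAD cell, Igf1 in 1 of each, and Spp1 and Gpnmb in none of either. Over all kept 5xFAD cells the shares ran from 70.5% for Cst7 and 68.9% for Axl to 8.33% for Gpnmb. At the edge of the class, the 16 5xFAD cells with 1 panel gene had a median of 48.5 CPM (reads scaled to the gene reads of the cell) over the panel, and the 16 with 2 panel genes, just outside it, 667. Their ranges, 1.86 to 3381 CPM and 6.36 to 11398 CPM, overlapped. The 27 WT cells with 1 panel gene had a median of 286 CPM and ran from 3.15 to 854. Pooled over the reads of all 16 5xFAD cells, the level was 2448 CPM of Apoe, 2214 of H2-D1 and 6239 of P2ry12 with 1 panel gene. With 2 panel genes the pooled levels were 3146, 2675 and 5028 CPM.

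Counts were summed over the panel-negative cells of each mouse, which gave 8778031 to 12553484 reads per WT mouse and 3483014 to 3706873 per 5xFAD mouse. A WT sum thus held 43 cells and a 5xFAD sum 9 to 11. The quality filters passed 177 of 190 WT and 133 of 176 5xFAD hippocampal wells, with 43 of 64 in 5xFAD mouse 1. The panel-negative cells were alike in their median shares of mitochondrially encoded reads, 1.36 to 1.64% in WT and 1.30 to 1.75% in 5xFAD mice. Thinned to equal depth, cells had a median of 2123 to 2251 genes in WT and 2140 to 2456 in 5xFAD mice. The summed level of the 10 microglia marker genes was 69614 to 73449 CPM in WT and 66069 to 70411 in 5xFAD, and 1 of the 10, P2ry12, passed the test. The sums hide cells with few reads of these markers. The lowest 5xFAD cell for each gene had 30.6 CPM of P2ry12, 12.2 of Tmem119 and 12.2 of Cx3cr1. In WT the lowest values were 236, 8.86 and 0 CPM. Whether such cells were microglia was not tested. All 10 border macrophage markers were at 0 in the 5xFAD sums, and their summed WT level was at most 25.9 CPM. The neutrophil list summed to 359 to 576 CPM in WT and 840.2 to 1132 in 5xFAD, but this was Csf3r, and S100a8, S100a9, Retnlg, Camp and Cxcr2 were at 0 in both. Marker sums of neurons (at most 37.8 CPM in WT and 4.31 in 5xFAD), oligodendrocytes (450.1 to 564 and 444 to 721) and astrocytes (208.9 to 270.4 and 135 to 305) overlapped between the genotypes.

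Of 13690 genes tested, 96 passed the threshold (0.701%), of which 15 were higher (0.11%) and 81 lower (0.592%) in 5xFAD than in WT panel-negative hippocampal microglia, by edgeR's quasi-likelihood test with Benjamini-Hochberg adjustment. The higher genes included the MHC class I heavy chains H2-D1 and H2-K1, with Lyz2, Ctsl, Fcgr2b, Ptprc, Ly86, Csf3r, Apobec3 and Serinc3. The lower genes with broad expression included the homeostatic genes P2ry12, Cst3 and Crybb1. All 15 higher genes and 22 of the lower ones were read in 20% or more of WT or of 5xFAD cells, and these make up 0.294% and 0.431% of the 5099 genes with such breadth. The other 59 lower genes were read in fewer cells. The mouse values of 15 of the 15 higher and 79 of the 81 lower genes did not overlap between the genotypes, against 11.4% of all genes tested and 12.9% of the broadly read ones. The calls were made on these same mouse sums, so non-overlap is no separate evidence for a called gene. The median log2 fold change was -0.22 over all genes tested and -0.06 over the broadly read ones, and with relative log expression (RLE) scaling in place of TMM these medians moved up to -0.08 and 0.09. With that scaling 33 genes were higher and 73 lower.

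The calls rest on the spread shared over all 22 sums of panel-negative cells from 3 brain regions. With the spread estimated from the 7 hippocampal sums alone, edgeR called 0 of 10753 genes, with 1120 at an unadjusted p under 0.05, and the 22-sum fit had 1757. DESeq2 called 1097 genes and limma-voom 244 in the 22-sum design. Leaving out 5xFAD mouse 1, 2 or 3 raised the count to 261, 277 or 180, of which 233, 250 and 153 were lower. The number of genes tested rose too, from 13690 to 15367, 15451 and 15578. Of the 15 higher genes 13, 12 and 10 kept their call, and of the 22 broadly read lower ones 19, 17 and 19.

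MHC class I heavy chain genes were higher in every 5xFAD mouse. H2-D1, a classical class I heavy chain, stood at 785, 478, 702 and 516 CPM in the 4 WT mice and at 1585, 2259.6 and 2026 in the 3 5xFAD mice. The lowest 5xFAD mouse exceeded the highest WT mouse. The log2 fold change was 1.67 ± 0.23 (SE; edgeR adjusted p = 0.000509, a log2 fold change of 1 being a ratio of 2). The rise was seen across cells, since the median level per cell was 334.5 CPM in WT and 1974 in 5xFAD, and 75.6% of WT and 93.5% of 5xFAD cells had a read. H2-K1, the other classical heavy chain of this strain, stood at 771, 399.7, 694 and 513 CPM in WT and 1816, 1423 and 1319.7 in 5xFAD mice. These groups did not overlap either, and the log2 fold change was 1.37 ± 0.23 (adjusted p = 0.00396). Both genes stayed past the threshold with each of the 7 mice left out in turn. H2-D1, H2-K1 and other class I genes are near-identical in parts, so reads could have been split or shared among them in counting.

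The promoters of both genes are shown because the genes rose together. The windows are RefSeq promoters on GRCm38.p6, 250 bases before to 50 after the annotated start. H2-D1 lies at chr17:35262844-35263143 on the plus strand, and H2-K1 at chr17:34000298-34000597 on the minus strand, the first of its listed starts. Capitals mark the longest stretch of letters that the windows share, 47 bases that begin 201 bases before the start of H2-D1 and 141 before that of H2-K1.
H2-D1: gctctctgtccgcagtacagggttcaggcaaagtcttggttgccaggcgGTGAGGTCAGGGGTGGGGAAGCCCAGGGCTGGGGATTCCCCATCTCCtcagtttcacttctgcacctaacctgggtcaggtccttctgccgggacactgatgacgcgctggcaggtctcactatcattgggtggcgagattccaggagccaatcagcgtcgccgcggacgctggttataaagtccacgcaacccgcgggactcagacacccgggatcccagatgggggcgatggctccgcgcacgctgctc
H2-K1: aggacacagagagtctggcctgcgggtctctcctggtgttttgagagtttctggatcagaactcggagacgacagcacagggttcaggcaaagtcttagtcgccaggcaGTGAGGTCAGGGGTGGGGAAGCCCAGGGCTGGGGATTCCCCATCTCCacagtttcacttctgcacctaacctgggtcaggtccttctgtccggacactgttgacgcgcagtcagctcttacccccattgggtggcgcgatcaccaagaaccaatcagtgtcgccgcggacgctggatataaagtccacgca
The stretch holds the NF-kappaB-type enhancer element known from class I promoters. Searched on both strands, the whole stretch was found in 3 of 32851 RefSeq promoter windows (0.00913%), that of H2-D1 and those of the 2 listed starts of H2-K1. It was taken from these windows, so hits in both genes were fixed by that choice. How common the shorter element is in other promoters was not counted. A match describes the letters, with no binding measured here.

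The rest of the MHC class I list did not pass the test. Of its 20 tested members 2 were higher (H2-D1 and H2-K1), against 0.11% of all genes tested, and none was lower. The 16 with positive fold changes and the list's median of 0.34 stand against a median of -0.22 over all genes tested. Of the 16 members read in 20% or more of WT or 5xFAD cells, 13 were positive. Their median was 0.13, against -0.06 over all genes of that breadth. B2m, the light chain that pairs with every class I heavy chain, had 2797, 2126, 2177 and 2414 CPM in WT and 3634, 4011 and 2619 in 5xFAD mice. 5xFAD mouse 3 lay within the WT range, and the log2 fold change was 0.54 ± 0.15 (adjusted p = 0.131). With RLE scaling it was 0.69 with an adjusted p of 0.033.
Gm8995, a predicted gene, was read in 25 WT and 18 5xFAD cells and also rose, by 2.16 ± 0.34 (adjusted p = 0.00173), from 57.2, 87.3, 87.5 and 78.5 CPM in WT to 396, 375 and 255 in 5xFAD mice.

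**Figure D2:**
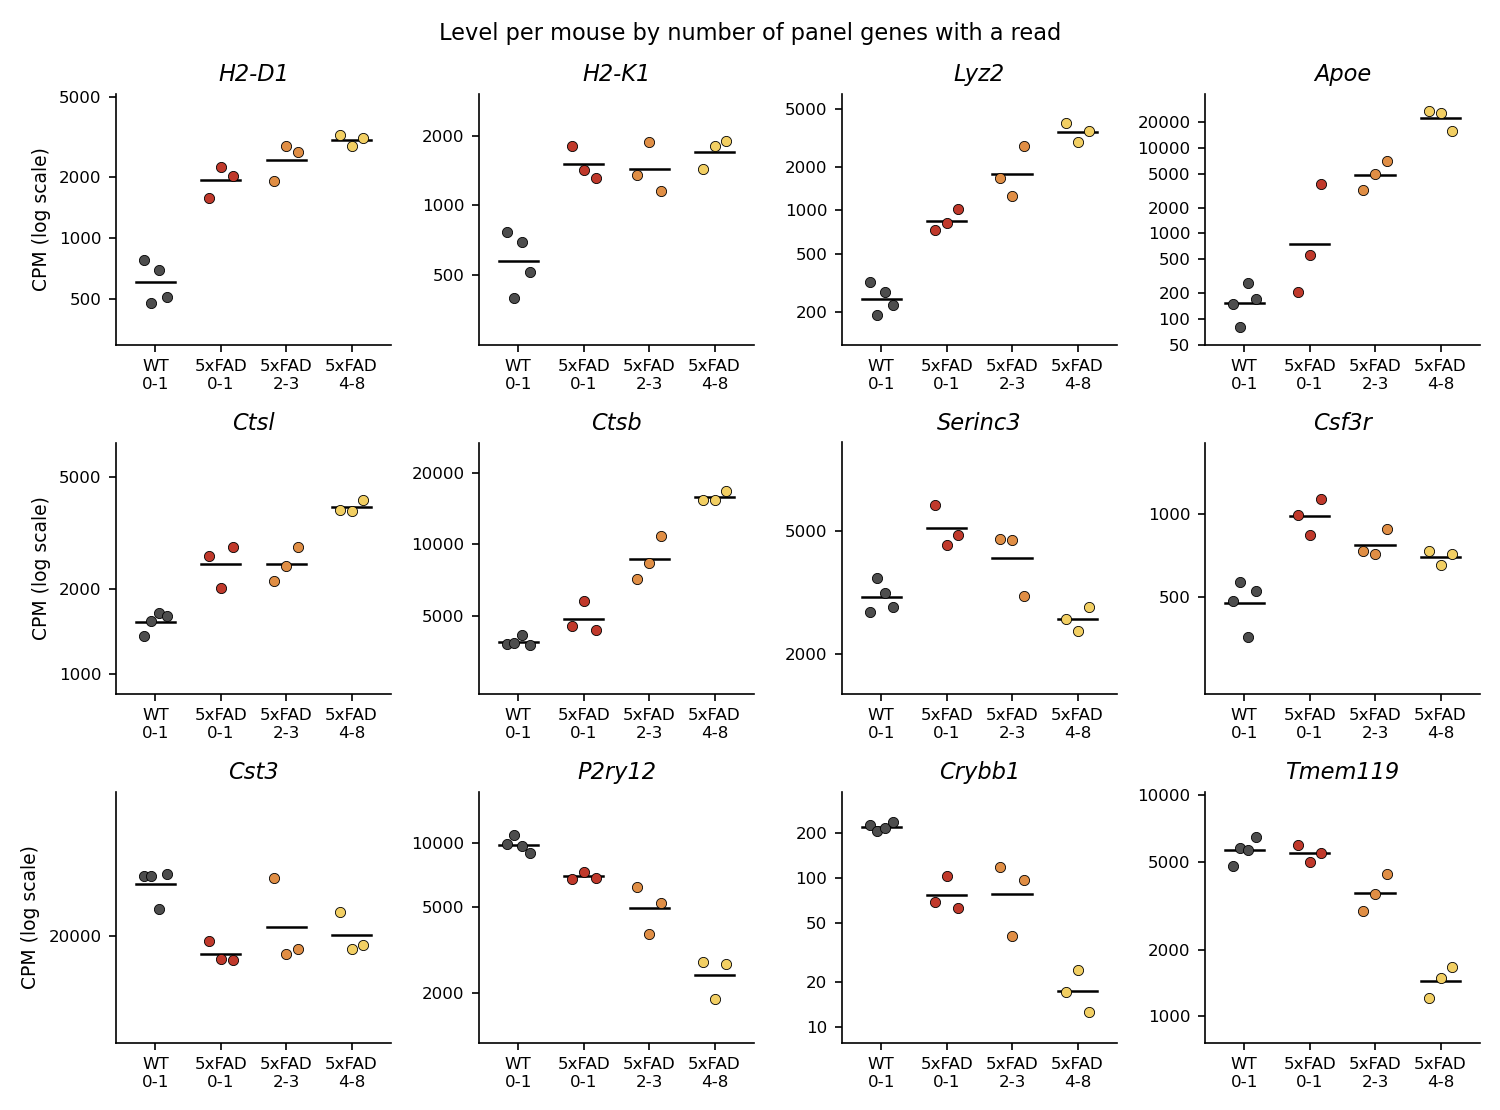
Levels of 12 genes (y axis, CPM of summed cells on a log scale), with a point per mouse and a line at the geometric mean, in WT cells with 0 or 1 panel gene and in 5xFAD cells with 0 or 1, 2 or 3, and 4 to 8 panel genes. H2-D1 and H2-K1 are above WT in all 3 5xFAD classes, Apoe and Ctsb are highest in the 5xFAD cells with 4 to 8 panel genes, and Serinc3 is above WT in the panel-negative class.

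Interferon-induced genes leaned upward without any passing the test. Of 34 tested members of the interferon list edgeR called 0, 7 were higher and 0 lower at an unadjusted p under 0.05, 29 had a positive fold change, and the median was 1.54. Of all 13690 genes tested 1757 had such a p in either direction, and their overall median was -0.22. DESeq2 called 5 higher and 1 lower, and limma-voom 0. The lean rested on 5xFAD mouse 2, without which 20 of the 34 were positive with a median of 0.43. Irf9, a subunit of the interferon-activated transcription factor complex, had 84.6, 69, 115 and 144 CPM in WT and 250.4, 317 and 272 in 5xFAD mice. These did not overlap, and the log2 fold change was 1.45 ± 0.41 (adjusted p = 0.123). Ifi27l2a, an interferon-induced mitochondrial protein, had 0, 0.998, 2.89 and 9.24 CPM in WT and 63.2, 101 and 5.67 in 5xFAD mice, with the third 5xFAD mouse inside the WT range. It was read in 9 of 172 WT and 16 of 31 5xFAD cells, and its log2 fold change was 4.12 ± 1.23 (adjusted p = 0.163).

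Genes of the disease-associated programme outside the panel were higher in part. Of 41 tested members 2 were higher (Ctsl and H2-D1) and none lower, 15 were higher at an unadjusted p under 0.05, and 35 had a positive fold change with a median of 0.43. Of all 13690 genes tested 0.11% were called higher, 1757 had an unadjusted p under 0.05 in either direction, and the median was -0.22. H2-D1 also counts in the class I list and Ctsl in the lysosome list. The genes of the disease-associated list are known to rise together with the panel genes, so the choice of cells by the panel bears on them. Apoe, the lipid carrier, had 151, 80, 264 and 171 CPM in WT and 206, 561 and 3738 in 5xFAD mice. Mouse 1 was within the WT range and mouse 3 far above it, and the log2 fold change was 3.18 ± 0.83 (adjusted p = 0.085). The share of cells with an Apoe read was 32% in WT and 90.3% in 5xFAD. These shares were taken at the unequal depths given above, and the lower quartile of the 5xFAD cells was 7.15 CPM. The level was carried by few cells, since the median 5xFAD cell had 104 CPM, the upper quartile was 337 and the highest cell had 27796, against a WT median of 0 and a highest WT cell of 4212. In 5xFAD cells with 2 or 3 panel genes Apoe stood at 3199.7, 4881 and 6950.4 CPM, and in those with 4 or more at 26888, 25158 and 15711. Panel-negative 5xFAD cells of mice 1 and 2 were thus far below the other cells of the same hippocampus.

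Lyz2 (lysozyme) had 322, 191, 274 and 222 CPM in WT and 729, 813 and 1031 in 5xFAD mice. All 5xFAD mice were above all WT mice, and the log2 fold change was 1.78 ± 0.41 (adjusted p = 0.0471). That call ended without 5xFAD mouse 3 or without any of the 4 WT mice, at adjusted p from 0.0705 to 0.148. Lyz2 was called in 7 of 27 alternative settings, and its adjusted p was 0.646 with limma-voom. By edgeR it was 0.0645 with cells thinned before summing and 0.172 with macrophage-like wells kept. The latter setting left the panel-negative hippocampal cells unchanged, so the call also rests on the spread in other regions. Ctsl, the lysosomal protease cathepsin L, had 1359, 1538, 1649 and 1608 CPM in WT and 2617, 2014 and 2829 in 5xFAD mice. The groups did not overlap and the log2 fold change was 0.71 ± 0.14 (adjusted p = 0.0154), which became 0.0631 without 5xFAD mouse 3, 0.0647 without WT mouse 1 and 0.0573 without WT mouse 2. Cathepsins B and D differed less, with log2 fold changes of 0.34 ± 0.12 for Ctsb (adjusted p = 0.263) and 0.24 ± 0.11 for Ctsd (adjusted p = 0.371). In cells with 4 or more panel genes, Ctsb ran from 15295 to 16772 CPM and Ctsd from 30505 to 34992, against 4332 to 5749 and 8095 to 11960.4 in panel-negative 5xFAD cells. Of the 42 lysosome genes tested, 1 was higher (Ctsl) and none lower, 27 were positive and the median was 0.17. Of all genes tested 0.11% were higher, with a median of -0.22, or -0.06 over the broadly read ones. Npc2, which binds cholesterol in the lysosome, had 448, 463, 571 and 573 CPM in WT and 824, 704 and 1114 in 5xFAD, without overlap and with an adjusted p of 0.0577.

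The TREM2 receptor and its adaptor did not pass the test in the panel-negative cells. Trem2 had 2066, 1919, 1865 and 1844 CPM in WT and 1875, 2237 and 2377 in 5xFAD mice, with mouse 1 in the WT range and a log2 fold change of 0.18 ± 0.11 (adjusted p = 0.498). Tyrobp, which passes on the signal of TREM2, had 898, 873, 844 and 984 CPM in WT and 1037, 973 and 1107 in 5xFAD mice, with a log2 fold change of 0.22 ± 0.12 (adjusted p = 0.458). In 5xFAD cells with 4 or more panel genes Trem2 reached 3265 to 4039 and Tyrobp 2621 to 3675 CPM.

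Of 26 complement and phagocytic receptor genes 1 was higher and none lower, with a median of 0.17. Of all genes tested 0.11% were higher, with a median of -0.22, or -0.06 over the broadly read ones. The higher gene of the list was Fcgr2b, the inhibitory receptor for immunoglobulin G, with 570.4, 673, 551 and 513 CPM in WT and 871, 992 and 1059.9 in 5xFAD mice. These did not overlap, and the log2 fold change was 0.77 ± 0.17 (adjusted p = 0.0356). The call ended when 5xFAD mouse 2 or 3 or WT mouse 1, 3 or 4 was left out, at adjusted p from 0.0594 to 0.119. Fcgr4, an activating receptor of the same family, had 2.31 to 26.2 CPM in WT and 64 to 173 in 5xFAD mice, a log2 fold change of 3.07 ± 0.84 with an adjusted p of 0.113.

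Several further immune surface and antiviral genes were higher. Ly86 (MD-1), partner of the Toll-like receptor relative CD180, had 1375, 1481, 1227 and 1251 CPM in WT and 2051, 1990.2 and 2330.3 in 5xFAD mice, and rose by 0.68 ± 0.12 (adjusted p = 0.0056). Ptprc, the leukocyte phosphatase CD45 used in the sort, had 539.5, 437, 569 and 480.2 CPM in WT and 895, 927 and 792 in 5xFAD mice, and rose by 0.80 ± 0.18 (adjusted p = 0.0438). Leaving out any mouse other than 5xFAD mouse 3 ended the Ptprc call, at adjusted p from 0.0699 to 0.145. In each of these genes all 5xFAD mice were above all WT mice.

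Csf3r, the receptor for granulocyte colony-stimulating factor, had 486, 565, 359 and 526 CPM in WT and 989.9, 838 and 1132 in 5xFAD mice, without overlap. It rose by 1.04 ± 0.21 (adjusted p = 0.015), and the adjusted p was 0.052 without WT mouse 3. Apobec3, a cytidine deaminase that restricts retroviruses, had 206, 171, 209.1 and 151 CPM in WT and 407, 349 and 436 in 5xFAD mice, also without overlap. It rose by 1.12 ± 0.21 (adjusted p = 0.00944). Its levels in 5xFAD cells with 4 or more panel genes were 161, 153 and 261 CPM, the last of them above the WT range.

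Serinc3, a membrane protein of the serine incorporator family, had 2725, 3541, 3159 and 2835 CPM in WT and 6087, 4526 and 4877 in panel-negative 5xFAD cells. The groups did not overlap and the rise was 0.77 ± 0.11 (adjusted p = 0.000544, but 0.12 with limma-voom and 0.157 with its sample quality weights). In 5xFAD cells with 4 or more panel genes it stood at 2600.1, 2371 and 2844 CPM, close to the WT values. Dgkd, a diacylglycerol kinase, ran from 102 to 163 CPM in WT and from 257 to 458 in 5xFAD mice, a rise of 1.57 ± 0.29 (adjusted p = 0.00739). Macf1, a cytoskeletal crosslinker, rose by 0.87 ± 0.19 (adjusted p = 0.0283), and that call ended without 5xFAD mouse 3 or WT mouse 2, 3 or 4 (adjusted p from 0.0697 to 0.141). Hcfc1, a chromatin-bound cofactor, rose by 1.54 ± 0.36 (adjusted p = 0.0484), and its call ended whichever of the 7 mice was left out (adjusted p from 0.0549 to 0.146). Of the 19 mitochondrially encoded genes tested, mt-Co1 alone passed, at 2489 to 2584 CPM in WT and 3572 to 4232 in 5xFAD mice (0.62 ± 0.11, adjusted p = 0.00739).

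Among the homeostatic genes P2ry12, Cst3 and Crybb1 fell, while Tmem119 and Cx3cr1 did not pass the test. Of 33 tested members 3 were lower (P2ry12, Cst3 and Crybb1) and 1 higher (Serinc3), 8 had a positive fold change and the median was -0.27, whereas with RLE scaling 15 were positive and the median was -0.12. Of all genes tested 0.592% were lower and 0.11% higher. All 33 members were broadly read, and the median over all genes of that breadth was -0.06, or 0.09 with RLE scaling. P2ry12, the purine receptor that guides microglial processes, had 9844, 10804, 9606 and 8949 CPM in WT and 6749, 7309.7 and 6842 in 5xFAD mice. The groups did not overlap, and the log2 fold change was -0.48 ± 0.09 (adjusted p = 0.00598), with 7 of the 31 5xFAD cells above the WT median. In 5xFAD cells with 2 or 3 panel genes it was 3776 to 6189.7 CPM and in those with 4 or more 1877 to 2798. Cst3, the secreted protease inhibitor cystatin C, had 28211, 28128, 23337 and 28528 CPM in WT and 19481, 17517 and 17432 in 5xFAD mice. These groups did not overlap either, with a log2 fold change of -0.56 ± 0.08 (adjusted p = 0.000489) and 4 of 31 5xFAD cells above the WT median.

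Crybb1, a crystallin that microglia express early and in health, had 226, 206, 215 and 237 CPM in WT and 69.5, 103 and 63.4 in 5xFAD mice. Without overlap, it fell by 1.48 ± 0.30 on the log2 scale (adjusted p = 0.0181, and 0.0589 without 5xFAD mouse 3). Crybb1 was called in 16 of 27 alternative settings. Its adjusted p was 0.104 with limma-voom and, by edgeR, 0.0603 without plate columns 1 and 2. Tmem119 had 4776, 5747, 5634 and 6497 CPM in WT and 5945, 4972 and 5501 in panel-negative 5xFAD cells, all within the WT range, with a log2 fold change of -0.04 ± 0.16 (adjusted p = 0.976). Its level was 1215, 1498 and 1672 CPM in the 5xFAD cells with 4 or more panel genes. Cx3cr1 had 7541, 7159.7, 7641 and 6265 CPM in WT and 7528, 8318 and 7122 in 5xFAD mice, a log2 fold change of 0.11 ± 0.09 (adjusted p = 0.649). Its level was 3299 to 4028 CPM in the 5xFAD cells with 4 or more panel genes.

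To give WT sums of about as many cells as the 5xFAD sums, WT wells were also taken from 4 plate rows at a time, a choice made after seeing the data. Against WT wells of rows A to D alone, P2ry12 differed by -0.20 (adjusted p = 0.374), Cst3 by -0.40 (adjusted p = 0.174) and Crybb1 by -1.10 (adjusted p = 0.248), while H2-D1 differed by 2.23 and Serinc3 by 0.85. Against each of the other 3 blocks of rows P2ry12 (adjusted p from 0.0233 to 0.029) and Cst3 (0.000965 to 0.0415) stayed past the threshold, and Crybb1 did so against rows I to L (0.0499). Against rows A to D the homeostatic list had 16 of 33 positive members and a median of -0.01. The P2ry12 call also ended with RLE scaling (-0.33, adjusted p = 0.0772) and with limma-voom (adjusted p = 0.98).

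The upward shift was smaller without the 16 5xFAD cells with 1 panel gene. In the comparison of cells with none of the 8 panel genes, 15 5xFAD cells (4, 8 and 3 by mouse) against 145 WT cells, 305 genes passed the test, 11 higher and 294 lower. Of the 15 genes higher among all panel-negative cells 14 kept their sign and 2 their call, H2-K1 (1.06, adjusted p = 0.0288) and Serinc3 (0.48, adjusted p = 0.0284). H2-D1 was 1.04 (adjusted p = 0.0831), Csf3r 0.73 and Apobec3 0.74. Ctsl fell back to 0.37, Ly86 to 0.24, Lyz2 to 0.01 and Ptprc to 0.00, and Apoe was 1.14 (adjusted p = 0.501). Of the 38 disease-associated genes tested there 0 passed edgeR's test, 19 were positive and the median was -0.02. The interferon list had 25 of 33 positive members with a median of 0.89. 5xFAD mouse 2, on which the lean of that list rested above, gave 8 of these 15 5xFAD cells. It gave 2701483 reads, against 877629 from mouse 1 and 1098914 from mouse 3. Of the 22 broadly read lower genes 16 kept their call, among them P2ry12 (-0.51, adjusted p = 0.00865) and Cst3 (-0.74, adjusted p = 0.00438), and 4 of the 33 homeostatic genes were then lower with a median of -0.40. Crybb1 lost its call there (-1.46, edgeR adjusted p = 0.0854).

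Further lower genes with broad expression had varied roles, and few kept their call when the panel was read at equal depth. With the panel read from cells thinned to 53000 reads (41 5xFAD cells), 22 of the 22 kept their sign and 4 their call, P2ry12 and Cst3 among them, while 11 of the 15 higher genes kept theirs. That setting thinned the panel read-out alone and summed counts at full depth. With the cells themselves thinned before summing, 15 of the 22 lower and 9 of the 15 higher genes kept their call. Nfe2l2 (NRF2), the transcription factor of the antioxidant response, had 448, 438, 383 and 580.5 CPM in WT and 96.8, 147 and 245 in 5xFAD mice. It was read in 116 of 172 and 14 of 31 cells, the mouse values did not overlap, and the log2 fold change was -1.50 ± 0.29 (adjusted p = 0.0133). The Nfe2l2 call ended with the thinned panel (-0.82, adjusted p = 0.281), with panel genes at 10 or more reads (-0.86, adjusted p = 0.268), with 0 of 8 panel genes (adjusted p = 0.222), with limma-voom (adjusted p = 0.11) and against WT rows I to L (adjusted p = 0.0732) and M to P (adjusted p = 0.161). Zfhx3, a homeobox transcription factor, had 165 to 193 CPM in WT and 54.8 to 78.5 in 5xFAD mice, a log2 fold change of -1.45 ± 0.31 (adjusted p = 0.0257, and 0.0512 to 0.0592 without 5xFAD mouse 2 or WT mouse 2, 3 or 4). Tmsb4x, the actin-binding thymosin beta-4, had 2177 to 2524 CPM in WT and 1436 to 1592 in 5xFAD mice, -0.60 ± 0.11 (adjusted p = 0.00668). With the thinned panel the adjusted p was 0.157 for Zfhx3 and 0.0696 for Tmsb4x.

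Some lower calls need the measurements beside them. Slc34a2, a phosphate transporter, had 2735 to 3171 CPM in WT and 838 to 1296 in 5xFAD mice (-1.42 ± 0.18, adjusted p = 0.00034), but it held most gene reads of the wells without a cell, 619705 CPM on the WT plate and 850542 on the 5xFAD plate. When cells were thinned to equal depth before summing, it differed by -0.99 (adjusted p = 0.235). Mga, a transcription repressor, had 96.1, 171, 83.5 and 83.2 CPM in WT and 0.574, 2.31 and 5.4 in 5xFAD mice, a log2 fold change of -5.28 ± 0.72 (adjusted p = 0.000509). It was read in 43 of 172 WT and 4 of 31 5xFAD cells. With the panel read after thinning it differed by -0.86 (adjusted p = 0.635), with panel genes counted at 10 or more reads by -0.58 (adjusted p = 0.826), and with limma-voom its adjusted p was 0.0876. Casc3, a part of the exon junction complex, was lower with a log2 fold change of -2.54 ± 0.45 (adjusted p = 0.00582), Glyr1 with -4.63 ± 0.85 (adjusted p = 0.00729) and Flot1 with -3.73 ± 0.66 (adjusted p = 0.00582). Cstf3 differed by -3.68 ± 0.77 (adjusted p = 0.0223, but 0.0542 without WT mouse 1 and 0.0577 without WT mouse 3). Abr differed by -2.98 ± 0.68 (adjusted p = 0.0438, and 0.0514 to 0.112 on leaving out any mouse except 5xFAD mouse 1). With the thinned panel the adjusted p of Casc3, Glyr1, Flot1, Cstf3 and Abr ran from 0.0979 to 0.417.

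**Figure D3:**
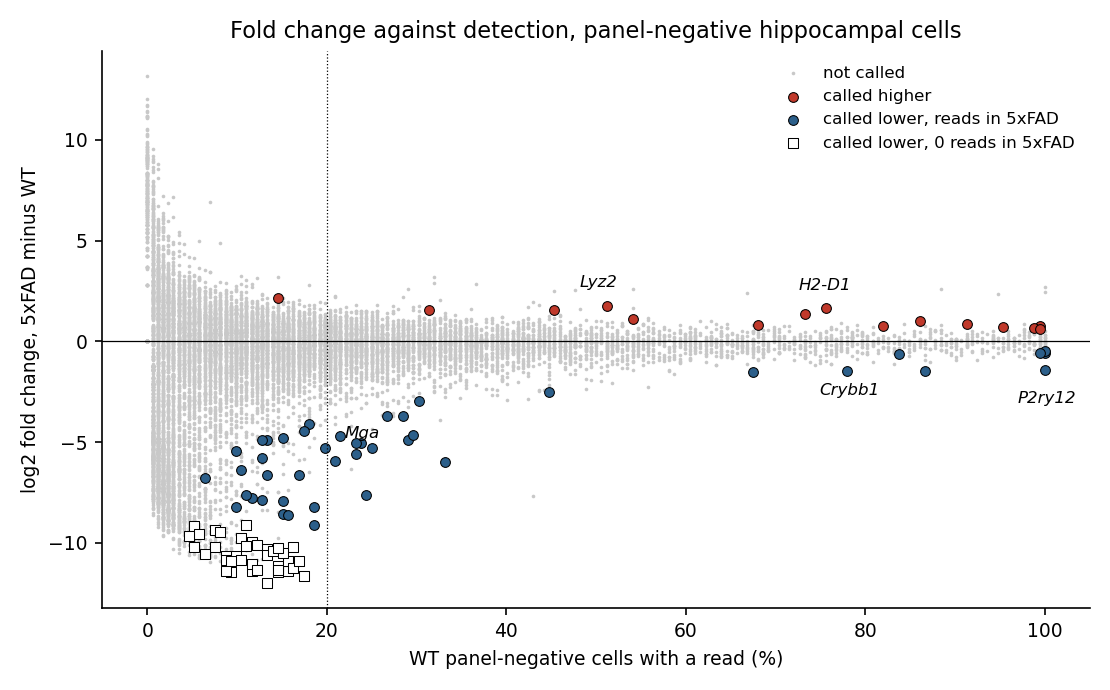
Log2 fold change of panel-negative 5xFAD against WT cells (y axis) against the share of WT panel-negative cells with a read (x axis, %), with a dot per gene tested and a dotted line at 20%. Genes called higher (red) lie to the right of the line or close to it, most genes called lower (blue, or white squares where the 5xFAD sums had 0 reads) lie to its left.

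The 59 sparse lower genes differ in how many cells gave any read. In 38 of the 81 lower genes the 31 5xFAD cells had 0 reads, while 4.65 to 17.4% of WT cells had a read (median 11.6%). A count of 0 of 31 cells allows a share of up to 9.68%, so for many of them the WT share is not far above what 31 cells can show. Hk1, a hexokinase that starts glycolysis, was read in 21 WT cells (12.2%) at 26.8 to 60 CPM and was at 0 in all 3 5xFAD mice (edgeR adjusted p = 0.00157). Tfeb, a transcription factor of lysosomal genes, was read in 21 WT cells (12.2%) at 8.21 to 36.9 CPM and was at 0 in 5xFAD (edgeR adjusted p = 0.00456). With 3 counts over the 5xFAD group as the floor, the read ratios were 148 for Hk1 and 66.8 for Tfeb. These ratios take reads as independent, which reads of 1 cell are not, so they are no lower bound on the fall. By cells, 12.2% of WT stands against the up to 9.68% that 0 of 31 allows. With the panel read from cells thinned to 53000 reads, which put 41 5xFAD cells in the class, 9 of the 59 kept their call. In that class Hk1 differed by -1.57 (adjusted p = 0.658) and Tfeb by -1.45 (adjusted p = 0.736). With the cells themselves thinned before summing, 27 of the 59 kept their call. Against the 4 blocks of WT plate rows, which hold about as many cells as the 5xFAD sums, 11, 24, 18 and 21 did.

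Other programmes showed few or no calls. Hk1 was the only called member of 18 glycolysis genes (median 0.12) and Tfeb of 28 genes of TGF-beta signalling and microglial transcription factors (median -0.33). Of 43 nuclear-encoded respiratory chain genes edgeR called 0, with 1 higher and 3 lower at an unadjusted p under 0.05 and 1 and 3 called by DESeq2, and 8 were positive with a median of -0.46. None of 20 immediate-early genes passed edgeR's test (1 higher and 1 lower at an unadjusted p under 0.05, 0 by DESeq2 and by limma-voom, median -0.12). None of 22 inflammatory genes passed either (2 and 1 unadjusted, 2 higher by DESeq2, 0 by limma-voom, median -0.02). Nor did any of 14 glucocorticoid-induced genes (0 and 3 unadjusted, 2 lower by DESeq2, 1 lower by limma-voom, median -0.82) or of 20 cell cycle genes (0 and 3 unadjusted, 5 lower by DESeq2, 0 by limma-voom, median -2.0, or -1.64 at the bound). Of 30 genes near Alzheimer's disease risk loci edgeR called 0, with 6 higher and 4 lower at an unadjusted p under 0.05, 5 higher and 1 lower by DESeq2 and 0 by limma-voom. Beside the unadjusted counts of these lists, 1757 of all 13690 genes tested had such a p in either direction. Malat1, a nuclear noncoding RNA, had 2712 to 3296 CPM in WT and 2041 to 2549 in 5xFAD mice (-0.40 ± 0.14, adjusted p = 0.27).

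The genotype effect on panel-negative microglia was next compared between regions, which per the series' design came from the same mice. Cortex gave 130 of 132 WT and 104 of 170 5xFAD panel-negative cells, and cerebellum 97 of 124 and 105 of 170. The hippocampal effect differed from the cortical one in 38 genes (0.278%), 4 higher (0.0292%) and 34 lower (0.248%), and from the cerebellar one in 56 (0.409%), 8 higher (0.0584%) and 48 lower (0.351%). With each mouse as a block across its regions these counts were 7 and 18. That block takes the replicate number as the mouse, which is an assumption, and 5xFAD cortex has 4 mice against 3 in hippocampus. By region, 3 genes passed in cortex (0.0219%), 2 higher (0.0146%) and 1 lower (0.0073%), and 6 in cerebellum (0.0438%), 2 higher (0.0146%) and 4 lower (0.0292%). Each region and genotype lay on its own part of 3 plates, with 5xFAD hippocampus and 5xFAD cerebellum on the same plate, so plate enters these differences too.

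The effect on MHC class I genes was larger in hippocampus than in cerebellum. H2-D1 differed by 1.67 in hippocampus, 1.09 ± 0.22 in cortex (adjusted p = 0.117) and -0.21 ± 0.23 in cerebellum (adjusted p = 1). The hippocampal effect exceeded the cerebellar one by 1.88 ± 0.33 (adjusted p = 0.00883, and 0.0366 with the mouse block). For H2-K1 the excess was 1.52 ± 0.33 (adjusted p = 0.044, but 0.178 with the block), and for B2m, whose own effects were 0.54 and -0.70, it was 1.24 ± 0.22 (adjusted p = 0.00883, block 0.03). The medians of the whole class I list were 0.34 in hippocampus, 0.72 in cortex and -0.37 in cerebellum.

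Ly86 and Tyrobp showed the same contrast with cerebellum. The Ly86 effect was 0.68 in hippocampus and -0.39 in cerebellum, a difference of 1.08 ± 0.17 (adjusted p = 0.00306, block 0.0247). The Tyrobp effect was 0.22 in hippocampus and -0.72 ± 0.13 in cerebellum, a difference of 0.94 ± 0.18 (adjusted p = 0.0141, block 0.0485). P2ry12 went the other way, lower in 5xFAD hippocampus (-0.48) and higher in 5xFAD cerebellum (0.46 ± 0.08, adjusted p = 0.0433), with a difference of -0.94 ± 0.12 (adjusted p = 0.000578, block 0.00227).

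Serinc3 was higher in 5xFAD panel-negative cells of all 3 regions, by 0.77 in hippocampus, 0.73 ± 0.10 in cortex (adjusted p = 0.00194) and 0.85 ± 0.11 in cerebellum (adjusted p = 0.000785). Cst3 was lower in hippocampus (-0.56) and in cerebellum, with -0.67 ± 0.08 there (adjusted p = 0.000269), with -0.18 in cortex (adjusted p = 0.771). Apobec3 differed from its effect in cortex, which was -0.27 against 1.12 in hippocampus. That difference was 1.40 ± 0.29 (adjusted p = 0.045), 0.303 with the mouse block, and past the threshold in 2 of the 7 comparisons that left out a hippocampal mouse.

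**Figure D4:**
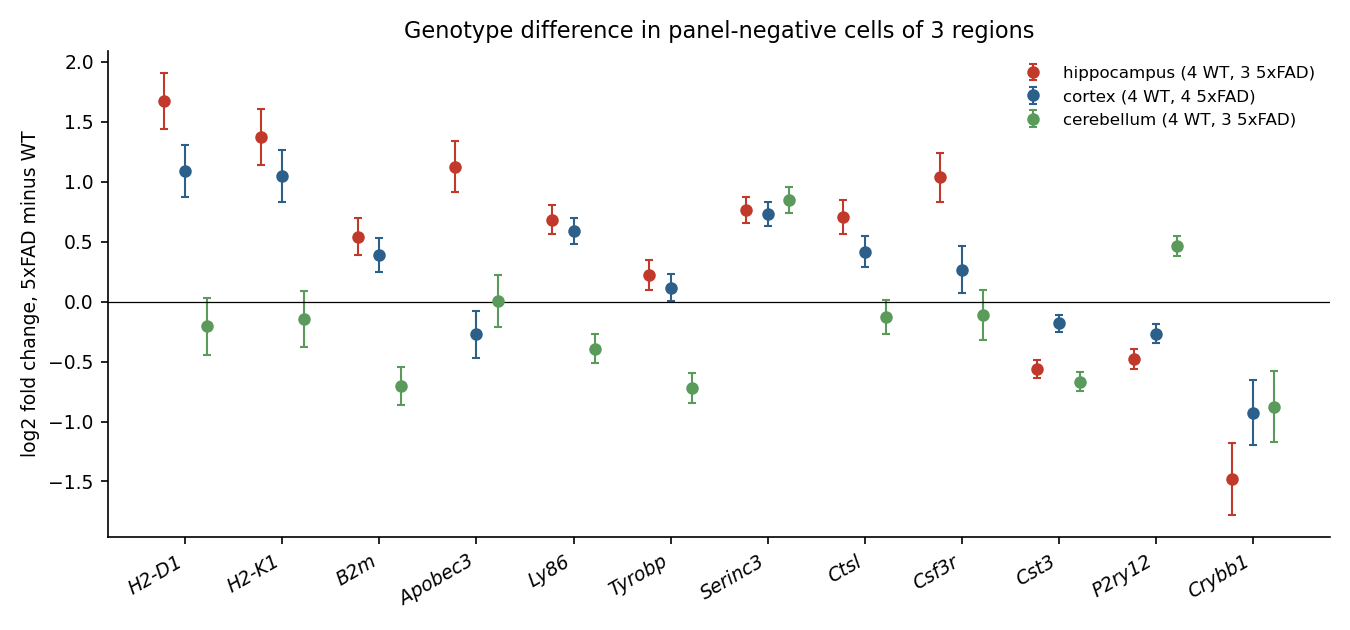
Log2 fold change of 5xFAD against WT panel-negative cells (y axis, with SE bars from edgeR) in hippocampus, cortex and cerebellum for 12 genes. Serinc3 is near 0.8 in all 3 regions, while H2-D1 is 1.67 in hippocampus and -0.21 in cerebellum.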

How the data were processed

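The deposited table holds raw counts, reads per gene and well, made by the authors with STAR 2.5.2b on GRCm38 and featureCounts 1.5.1, per the submitters' processing notes. The sources used here do not give trimming, annotation or strand setting. In 96 deposited columns, wells 1 and 2 of each plate row, the value was a sum that also held wells 10 to 19 or 20 to 24 of the row, and these wells were subtracted (0 negative of 4673184 values). Cells had at least 500 genes, at least 53000 gene reads and at most 20% mitochondrially encoded reads. Wells with at least 3 of Mrc1, Pf4, Ms4a7, H2-Aa, H2-Ab1 and H2-Eb1 at 50 CPM or more were left out, 1 per genotype. This kept 176 of 190 WT and 132 of 176 5xFAD hippocampal wells. Of the 11 panel-negative cells of 5xFAD mouse 1, 5 came from subtracted columns. Doublets were not called.

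Counts of panel-negative cells were summed per mouse and region (22 sums) and tested in 1 fit with edgeR 4.0.16 (R 4.3.3, TMM, filterByExpr, quasi-likelihood, a term per group), with Benjamini-Hochberg adjustment over 13690 genes and a threshold of 0.05. The SE is the absolute log2 fold change over the square root of F. Whether samples came from separate litters is not given. The p-values rest on the spread between the 22 sums of 3 regions, fitted as independent although the regions of a genotype share mice. That spread includes the draw of cells, 9 to 43 per hippocampal sum. Reads are not independent molecules, so floors cover counting error only. DESeq2 1.42.0 and limma 3.58.1 were alternatives, beside other scaling, filters, cell classes, plate rows, equal depth, blocks and left-out mice. Replicate numbers did not pair mice of the genotypes (correlations of -0.033, -0.0072 and -0.015 over 5892 genes). Regions of a genotype share mice per the series' design, and the number was taken as the mouse; these correlations were no higher, from -0.048 to 0.017.

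Named genes were the called genes with the largest fold changes, 10 in each direction, that had a mean of 4 or more on the log2 CPM scale, reads in at least 20% of cells of a group, no overlap of mice and no predicted, ribosomal or mitochondrial name, up to 3 per list with the smallest p, 13 set genes, and up to 5 per region contrast. Gm8995, mt-Co1 and Tmsb4x fall outside the rule and were chosen after their values were seen. The members and lists were chosen with earlier results of these data known. 1 gene that the rule names is not reported here. Promoter windows are from RefSeq.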

Additional observations from a re-analysis of the deposited data

Results flagged for a closer look

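In 6 of 64 genes the level of 1 of the 4 WT mice lay far from the other 3 by Dixon's criterion, which chance meets in about 1 of 20 groups. These were Mga (171 CPM in WT mouse 2), Cst3 (23337 in WT mouse 3) and, at low levels, H2-Ob (63.2), H2-Aa (7.75), Ier3 (33.5) and Egr1 (14.5). The 5xFAD groups of 3 mice cannot be examined this way.

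The genotype effect in panel-negative hippocampal cells differed by edgeR's test of the difference from that in cortex for 4 of the named genes. The differences on the log2 scale were 1.40 for Apobec3, -5.77 for Mga, -10.32 for Hk1 and -10.09 for Tfeb. With mouse as a block the adjusted p were 0.303, 0.0592, 0.102 and 0.0833, so none of these passed there.

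From the effect in cerebellum 12 named genes differed. The hippocampal effect was more positive for H2-D1 by 1.88, H2-K1 by 1.52, B2m by 1.24, Ly86 by 1.08 and Tyrobp by 0.94. It was more negative for P2ry12 (-0.94), Slc34a2 (-1.97), Flot1 (-3.74), Cstf3 (-5.38) and Mga (-5.58), and for the genes at 0 in 5xFAD hippocampus, Tfeb (-9.53) and Hk1 (-10.55). The fitted values of Hk1 and Tfeb depend on the prior count and are no measure of size. With mouse as a block, the adjusted p stayed under 0.05 for H2-D1, B2m, Ly86, Tyrobp, P2ry12, Slc34a2 and Mga, and rose to 0.178 for H2-K1, 0.233 for Flot1, 0.104 for Cstf3 and 0.0847 for Hk1 and Tfeb.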

How the results depend on the processing

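Over 27 settings, 1432 of 1762 recomputed values of named genes kept their direction and side of the threshold, 238 lost a call, 70 gained a call and 22 reversed; the cause was not tested. The 5xFAD sums of 9 to 11 cells set the depth, so genes read in few cells are the least certain. The blocks of WT plate rows, the quality weights and the restriction to genes in 20% of cells were chosen after seeing the data.

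The count of called genes in hippocampus (96) was 0 with the 7 hippocampal sums alone, 1097 with DESeq2, 244 with limma-voom, 238 with no filter, 157 with a stricter filter, 60 with the replicate block, 305 with 0 of 8 panel genes, 30 with the panel read after thinning, 31 with panel genes at 10 or more reads, and 33, 60, 55 and 76 against WT wells of plate rows A to D, E to H, I to L and M to P. Leaving out a mouse gave 73 to 277. The replicate numbers pair no mice of the genotypes, so the block describes a number only.

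The difference from cortex (38) was 650 with DESeq2, 127 with no filter, 59 with a stricter filter, 7 with the mouse block, 114 with 0 of 8 panel genes, 4 with the panel read after thinning, 5 at 10 or more reads, 10 with thinned sums, 18 with cells of 10000 reads, 17 without plate columns 1 and 2, 7 with genes in 20% of cells, and 0, 7, 2 and 20 by plate rows; left-out mice gave 19 to 174. The difference from cerebellum (56) was 756, 172, 86, 18, 127, 12, 12, 24, 18, 27, 27, and 9, 19, 12 and 25 under the same settings, 101 with limma-voom and 37 with quality weights; left-out mice gave 39 to 191.

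Reversals were of values without a call, apart from Hcfc1. With 0 of 8 panel genes Hcfc1 was -0.47, Cx3cr1 -0.45, Ctsb -0.059, Ctsd -0.10, H2-Ob -0.59 and Pros1 -0.40. Tmem119 (-0.04) was 0.11 with RLE and with DESeq2, 0.034 with a stricter filter, 0.026 with the replicate block, 0.053 with 0 of 8 panel genes, 0.082, 0.22 and 0.050 by rows A to D, E to H and I to L, 0.066 with genes in 20% of cells, and -0.12 to 0.033 without a mouse. Cx3cr1 was -0.014 with thinned sums. H2-Eb1 was 3.40 and 0.91 against rows A to D and E to H. Without a mouse Egr2 ran from -5.89 (without 5xFAD mouse 3) to 7.78, and Egr1 from -3.11 (likewise) to 6.27.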
